A study of Homo sapiens with 8 samples.

Results

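The difference of THZ1 response between 2 human thyroid cancer cell lines was measured, gene by gene, as the change in CAL-62 minus the change in BCPAP. A change is the mean of the THZ1 libraries minus the mean of the DMSO libraries on the scale log2(value + 1), where the value is an RPKM-type level (reads per length of the gene and per library total). All 8 libraries entered the fit, and 10653 genes were tested out of 12715 listed in either line's table. Genes were eligible when both lines' tables list them (10698 genes) and their mean value over the 8 libraries was at least 1. A negative difference therefore means that a gene stood lower after THZ1 in CAL-62 than its response in BCPAP would give, and a positive difference the reverse.

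Poly(A)-selected RNA was sequenced from BCPAP and CAL-62, established lines that the labels both name as anaplastic thyroid carcinoma. Each line received the vehicle DMSO, or THZ1 at 100 nM for 6 h, and each of these 4 groups has 2 libraries. BCPAP was grown in RPMI 1640 and CAL-62 in DMEM with more serum, so effects of the line cannot be told apart from those of its medium, and each line stands for itself only. In bulk RNA, fewer cells expressing a gene and less RNA per cell cannot be told apart either. Nothing in the labels says that the replicates were separate cultures, so p-values measure only how far these libraries vary, and that variation may be technical.

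THZ1 binds covalently to CDK7 and blocks it. CDK7 is the kinase subunit of TFIIH, a factor that every RNA polymerase II promoter uses, and it phosphorylates the tail of RNA polymerase II as transcription starts and activates other cyclin-dependent kinases. THZ1 also binds CDK12 and CDK13, kinases that act during elongation. When RNA synthesis is inhibited, short-lived transcripts are generally lost before long-lived ones. The deposited values are relative to a library total, so a loss of transcripts per cell stays invisible in them.

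The libraries held between 16671699 and 19973016 reads in listed genes, and the median gene had 399 to 730 reads. The largest principal component (54.97% of the variance) separated the lines, the next (20.26%) separated THZ1 from DMSO in both lines, and a further one (15.22%) separated replicate number 1 from number 2 in all 4 groups. Mitochondrially encoded genes took 2.69% to 10.3% of the reads, with the highest share in THZ1 replicate 1 of CAL-62. One library stood apart in stress and immediate early genes: in DMSO replicate 2 of CAL-62, DDIT4 had a value of 217.6 and EGR1 of 382.3, against 6.19 and 9.47 in DMSO replicate 1. These genes were picked after their values were seen, and values without this library are given beside most of the stress, immediate early, MAPK, p53, NF-kB and cell death results below. Of 16 thyroid lineage genes, 4 are listed in the BCPAP table and 2 in that of CAL-62, and the 2 listed in both were tested. The defining markers thyroglobulin, thyroid peroxidase and the TSH receptor are in neither table. Of 14 blood cell, 10 endothelial and 10 fibroblast markers, 1, 0 and 1 are in both tables.

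No single gene's response differed between the lines past the threshold. With limma, 0 of 10653 genes had a Benjamini-Hochberg adjusted p under 0.05 (0%), and the smallest adjusted p was 0.7566. An unadjusted p under 0.05 was found for 580 genes (5.44%), where chance alone gives 533. Of these, 528 (4.96%) had the lower response in CAL-62 and 52 (0.488%) the higher one. With median-of-ratios scaling in place of the deposited one the split was 459 lower and 119 higher. limma-voom on reads recovered from the values also called 0 genes, of 10651, and 638 had an unadjusted p under 0.05.

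With the replicate number as a block within each line, limma again called 0 genes (0%), with a smallest adjusted p of 0.1892. The number with an unadjusted p under 0.05 was then 2212 (20.8%), of which 1222 (11.5%) were lower and 990 (9.29%) higher in CAL-62. The blocked fit compares libraries of the same number and has 2 residual degrees of freedom, against 4 without the block. A shared block for both lines also called 0 genes, with 1548 at an unadjusted p under 0.05. The individual differences below therefore describe these libraries and were not established gene by gene.

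**Figure D1:**
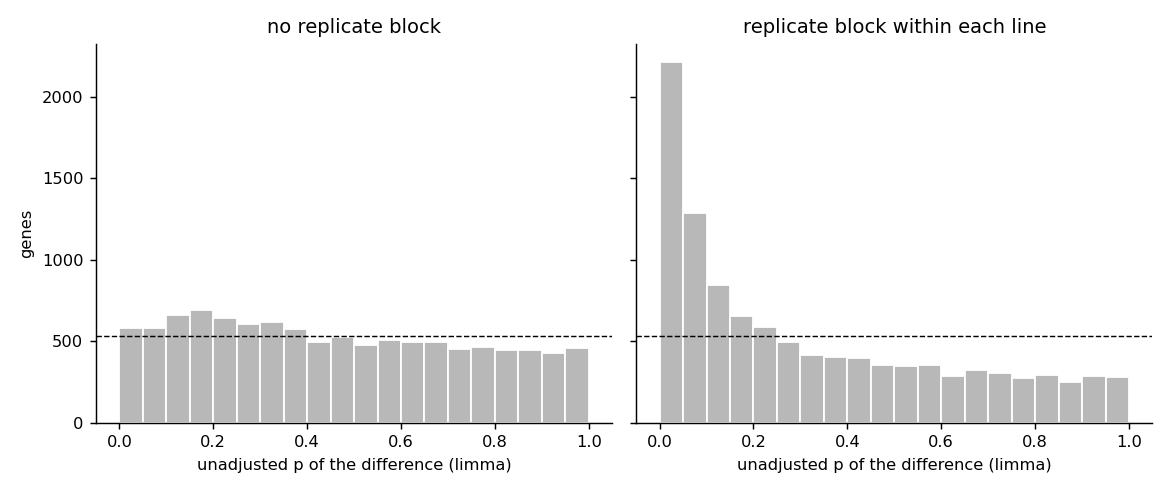
Number of genes (y axis) by unadjusted limma p-value of the difference of response (x axis, bins of 0.05), without a block (left) and with the replicate number as a block within each line (right); the dashed line is the 533 genes per bin that chance gives. The lowest bin holds 580 genes without the block and 2212 with it.

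The same treatment gave the wider changes in CAL-62. The quartiles of the change were -0.45 and 0.45 in CAL-62 and -0.16 and 0.26 in BCPAP, while the medians over all genes were 0.04 and 0.08. A change of at least 2-fold downward was found in 917 genes of CAL-62 and 61 of BCPAP, and upward in 194 and 24. The difference itself reached 2-fold downward in 520 genes (4.881%) and upward in 38 (0.3567%). These are counts over genes of 2 libraries per group and carry no test. Genes under a DMSO mean of about 1 are not listed, so genes that rise from below that level are missing from the upward counts. The same limit holds for the lower and higher counts by p above. Its part in the lean downward was not tested.

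Genes called in CAL-62 mostly had a change of the same sign in BCPAP. In the same limma fit 554 genes (5.2%) were called lower and 121 (1.14%) higher in CAL-62, whereas 0 were called in BCPAP, where 327 (3.07%) and 127 (1.19%) had an unadjusted p under 0.05 in the lower and the higher direction. For the 554, the median change was -1.44 in CAL-62 and -0.47 in BCPAP. The BCPAP change was negative for 527 of them (95.13%), and negative in both replicate numbers for 481 (86.82%). Over all genes, 40.22% had a negative BCPAP change and 29.53% a negative one in both numbers. The BCPAP libraries took no part in choosing these genes except through the shared variance. The choice by a large CAL-62 change favours a larger change there, so the sizes were also read from the other side. The 327 genes with an unadjusted p under 0.05 and a negative change in BCPAP had medians of -0.73 in BCPAP and -1.14 in CAL-62, and 227 of them (69.42%) were further down in CAL-62. The 127 with a positive BCPAP change had medians of 0.62 and 0.63, and 65 (51.18%) were further up in CAL-62. These 2 counts were added after the data were seen and carry no test.

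For the 121 genes called higher in CAL-62, the medians were 0.95 and 0.37, and the BCPAP change was positive for 119 (98.35%). Positive BCPAP changes in both numbers were found for 107 of the 121 (88.43%), against 44.37% of all genes. These shares rest on the calls in CAL-62, and without CAL-62 DMSO replicate 2 no gene was called there by limma, while without replicate 1 there were 93 lower and 1 higher calls. Without BCPAP THZ1 replicate 2 the shares were 79.38% of 616 and 72.82% of 401 called genes. With the block within each line they were 86.55% of 1956 and 95.67% of 2449. Across the 10653 genes the changes in the 2 lines, which share no library, had a Pearson r of 0.6563 and a Spearman rho of 0.6663, as a description over genes that are not independent.

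**Figure D2:**
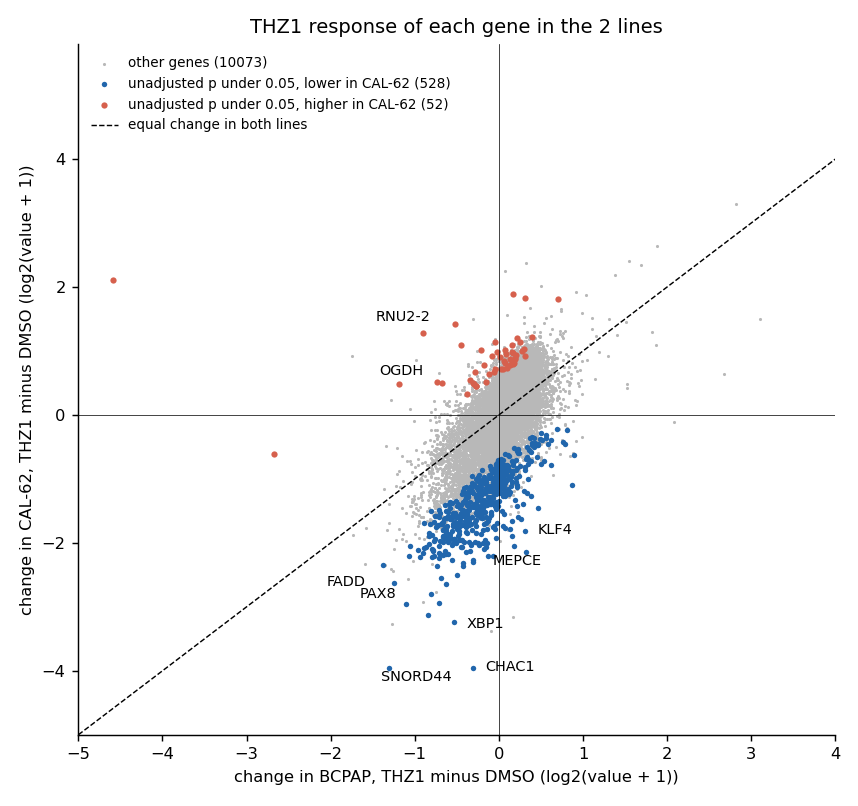
Change with THZ1 in BCPAP (x axis) and in CAL-62 (y axis), both in log2(value + 1), 1 point per gene; blue and red points had an unadjusted p under 0.05 for a lower (528) or higher (52) response in CAL-62, and none passed after adjustment. The dashed line marks equal changes; most blue points lie at a negative change in both lines or near 0 in BCPAP.

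Responses were also compared library by library. For 1322 genes (12.4%) all 4 THZ1 minus DMSO pairs of CAL-62 lay below all 4 pairs of BCPAP, and for 904 (8.49%) they lay above. In 150 genes (1.41%) every pair was negative in CAL-62 and positive in BCPAP, and in 43 (0.404%) the reverse. The genes with opposite signs are by construction a subset of those without overlap, and these counts carry no test.

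The 12 genes chosen in the lower direction, of which 11 are described here, had the smallest p-values among genes whose mean value was at least 5 and responses that did not overlap. All of them had a limma adjusted p of 0.7566, the smallest of any gene tested, so no gene named below had a lower one. MEPCE encodes the enzyme that caps 7SK RNA, the non-coding RNA that holds the elongation factor P-TEFb inactive. Its values were 22.0 and 18.5 in BCPAP under DMSO, and 20.8 and 15.1 with THZ1. The CAL-62 values were 48.8 and 46.1 and then 10.9 and 9.89. The THZ1 libraries of BCPAP lay among or just below their controls, while both of CAL-62 lay far below theirs (difference -1.91, SE 0.32).

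TNFRSF1A, the main receptor for tumour necrosis factor, gave a similar picture. BCPAP had 51.0 and 68.9 under DMSO, and 39.1 and 40.7 with THZ1, and CAL-62 had 42.0 and 54.9 and then 7.94 and 10.6. The difference was -1.71 (SE 0.35). Both lines stood lower after THZ1, and the gap between the groups was wider in CAL-62.

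ZBED5, which descends from a transposon and encodes a BED-type zinc finger, had 16.8 and 11.8 under DMSO, and 10.2 and 5.27 with THZ1 in BCPAP. In CAL-62 it had 19.0 and 16.6 and then 1.48 and 0.859 (difference -2.29, SE 0.47).

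Other genes of this group were LOC100509100, an uncharacterised gene, with a difference of -2.24, and CDC42EP2, an effector of the small GTPase CDC42, with -1.86. C15orf39 had -1.67, KLHL9, a substrate adaptor of cullin 3 ubiquitin ligases, had -1.65, ZNF672 had -1.63 and C14orf169 had -1.43. C15orf39 was level in BCPAP, at 15.2 and 15.1 under DMSO, and 15.8 and 14.0 with THZ1. CAL-62 had 7.997 and 9.74 and then 2.54 and 1.62 for the same gene. Each of the 12 had a negative difference within replicate number 1 and within number 2. This follows from the choice of genes whose responses did not overlap, so it adds no support.

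**Figure D3:**
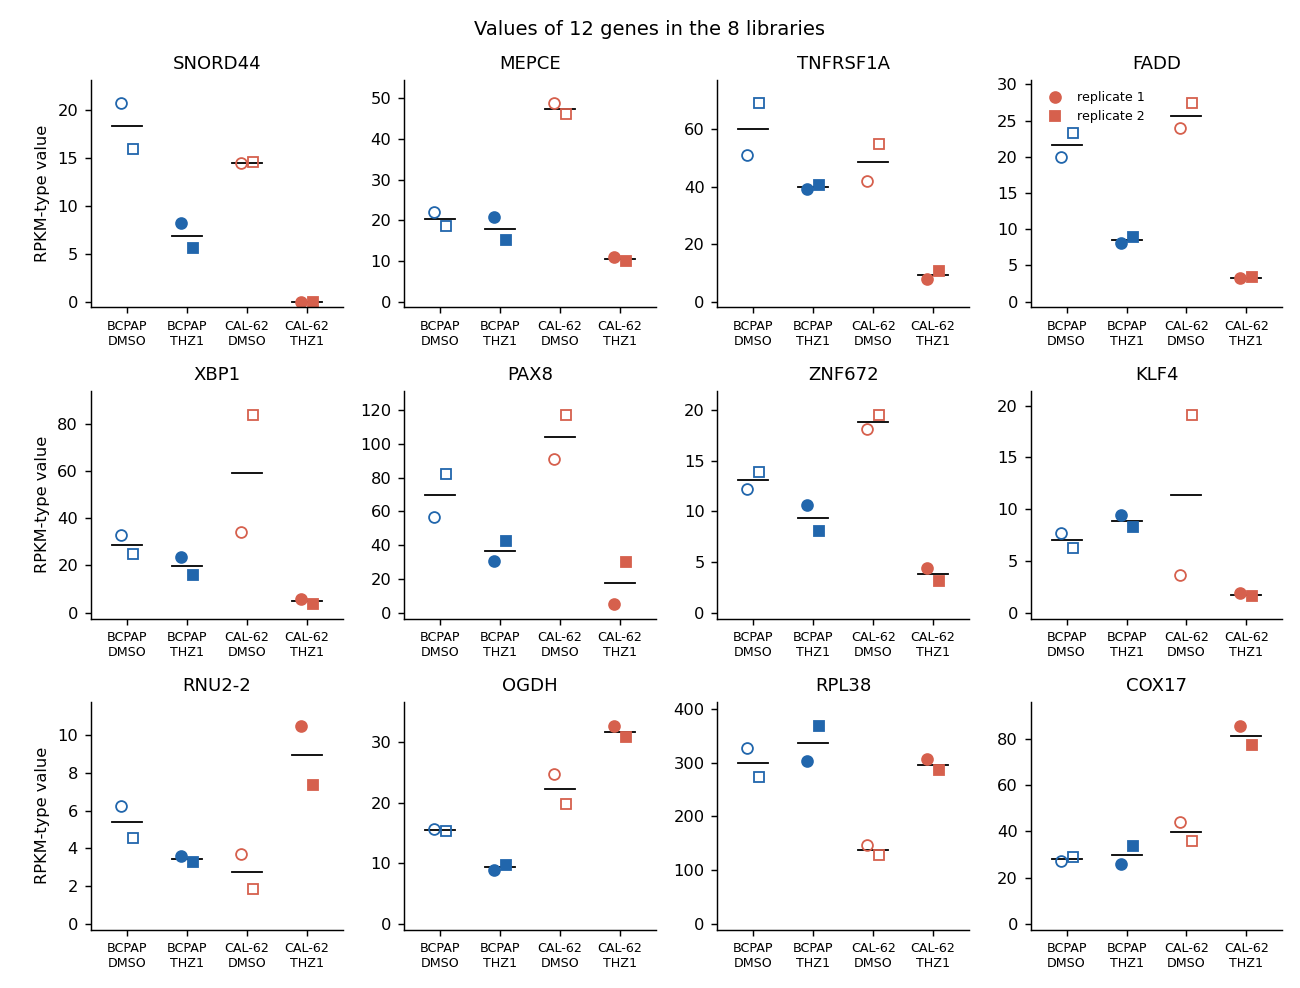
RPKM-type values (y axis, linear from 0) of 12 genes in the 8 libraries, by line and treatment; circles are replicate 1, squares replicate 2, open symbols DMSO, filled symbols THZ1, and bars the mean of 2. SNORD44, MEPCE, TNFRSF1A, FADD, XBP1, PAX8 and ZNF672 stood lower after THZ1 in both CAL-62 libraries than in both controls, while RNU2-2, OGDH, RPL38 and COX17 stood higher there; KLF4 and XBP1 spread widely between the DMSO libraries of CAL-62.

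A further 2 of the 12 were small nucleolar RNAs. These guide chemical modification of ribosomal and spliceosomal RNA and are mostly cut from the introns of host genes, so they lack a regular poly(A) tail. Their reads cannot be told apart from unspliced host RNA in these values. SNORD44 had 20.7 and 15.9 under DMSO, and 8.16 and 5.55 with THZ1 in BCPAP, and 14.4 and 14.6 and then 0 and 0 in CAL-62. Against a floor of 3 reads per library it was at least 4.69-fold lower in CAL-62, and 2.67-fold lower in BCPAP. Its difference on the log2(value + 1) scale was -2.65 (SE 0.36, limma adjusted p = 0.7566), the smallest p of all genes.

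The 4 C/D box small nucleolar RNAs below are shown because they are among the members with an unadjusted p under 0.05 whose sequence could be read and whose length lies within 2 bases of the length recovered from the values; they were chosen after their values were seen. Others that met these conditions are not printed, among them SNORD25 with a difference of -1.26 (SE 0.53, limma adjusted p = 0.8343). The first 3 had the lower response in CAL-62 and the last the higher one. Sequences are DNA letters from GENCODE v29 (GRCh38), 5′ to 3′, with the C box motif TGATGA and the last CTGA, the D box motif, in capitals. Only sequences with TGATGA near the start and a later CTGA were kept. The shared motifs therefore follow from that choice and say nothing about the responses.
SNORD27: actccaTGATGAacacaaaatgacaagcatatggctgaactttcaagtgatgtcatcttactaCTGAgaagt
SNORD12: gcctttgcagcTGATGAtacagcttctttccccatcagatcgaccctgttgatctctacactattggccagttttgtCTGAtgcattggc
SNORD50B: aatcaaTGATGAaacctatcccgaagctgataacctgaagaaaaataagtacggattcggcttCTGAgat
SNORD116-4: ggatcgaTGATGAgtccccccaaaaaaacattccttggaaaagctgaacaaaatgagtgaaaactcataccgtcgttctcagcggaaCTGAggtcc

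SNORD27 had 21 and 20 reads under DMSO, and 8 and 12 with THZ1 in BCPAP, and 20 and 19 and then 1 and 1 in CAL-62. SNORD12 had 15 and 22 and then 11 and 10 reads in BCPAP, and 12 and 13 and then 2 and 1 in CAL-62. For both the CAL-62 libraries after THZ1 held almost no reads, so counting error is large and the SEs (0.36 and 0.42) cover it only in part.

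SNORD50B followed the same order, with 7 and 14 and then 8 and 8 reads in BCPAP, and 9 and 14 and then 2 and 0 in CAL-62. SNORD116-4, of an imprinted cluster of near-identical copies that reads may be split between, had 11 and 9 reads under DMSO, and 9 and 8 with THZ1 in BCPAP. In CAL-62 it had 28 and 24 and then 44 and 41 reads (difference 1.18, SE 0.37, and 0.49 when scaled to ribosomal protein genes). It was the member of its list with an unadjusted p under 0.05 in the higher direction.

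Over the 150 small nucleolar RNAs tested, the median difference was -0.55, against -0.01 over all genes, and 112 were negative. In the lower direction 22 had an unadjusted p under 0.05 (4.96% of all genes did), 44 with the block (11.5%), and 27 had responses that did not overlap (12.4%). The 2 replicate numbers gave medians of -0.19 (number 1) and -1.02 (number 2), and without CAL-62 THZ1 replicate 2 it was -0.06, so its size rested on that library. The host genes were less uniform: of 12, 5 had a positive and 7 a negative difference, with a median of -0.18. SNHG3, a host gene, had 48.0 and 44.7 and then 32.6 and 29.1 in BCPAP, and 19.8 and 18.1 and then 5.03 and 5.90 in CAL-62 (difference -1.06, SE 0.28). GAS5, the host of SNORD44, had 102.0 and 103.8 and then 85.7 and 101.1 in BCPAP, and 75.8 and 114.2 and then 56.2 and 91.3 in CAL-62 (difference -0.23, SE 0.41). The GAS5 groups overlapped in CAL-62, where SNORD44 went to 0 reads.

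Genes named ZNF encode C2H2 zinc finger proteins, the largest family of human transcription factors, many of which repress transposons and whose transcripts are generally low and short-lived. Of 317 tested, 292 had a negative difference, with a median of -0.66. The median change was -0.83 in CAL-62 and -0.15 in BCPAP. An unadjusted p under 0.05 was found for 87 in the lower direction (4.96% of all genes) and 0 in the higher one (0.488%), and with the block for 137 (11.5%) and 1 (9.29%). Responses did not overlap, with CAL-62 lower, in 136 members (12.4% of all genes), and in the other direction in 0 (8.49%).

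The ZNF medians were alike in the 2 replicate numbers, at -0.63 and -0.77, and lay between -0.86 and -0.47 when any of the 8 libraries was left out. The family's levels were low, with a median mean value of 3.10 against 11.4 over all genes, and log2(value + 1) understates the change of low genes. ZNF672 had 12.3 and 13.9 under DMSO, and 10.7 and 8.09 with THZ1 in BCPAP, and 18.2 and 19.6 and then 4.44 and 3.10 in CAL-62 (difference -1.63, SE 0.35). Both CAL-62 THZ1 libraries lay below every other library, and the groups of CAL-62 did not overlap. ZNF185, a LIM domain gene that shares the name but not the role, had the smallest p among the members with a positive difference (0.58, SE 0.37).

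Lists of cell death and inflammatory signalling had negative medians. Of 22 genes of the BCL2 family and the death receptors, 17 had a negative difference (median -0.46), 4 with an unadjusted p under 0.05 in that direction (4.96% of all genes) and 8 with the block (11.5%). FADD, the adaptor that couples death receptors to caspase 8, had 19.9 and 23.3 and then 8.03 and 8.95 in BCPAP, and 24.0 and 27.4 and then 3.28 and 3.35 in CAL-62. Its levels after THZ1 were below those under DMSO in both lines, and the difference was -1.37 (SE 0.30).

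The other members of that list under an unadjusted p of 0.05 were BAK1, a pore former of the outer mitochondrial membrane, with a difference of -1.52, TNFRSF10B, a receptor for TRAIL, with -1.03, and MCL1, a short-lived survival protein, with -1.92. Without CAL-62 DMSO replicate 2 these were -1.41, -0.66 and -1.58. MCL1 had 64.3 and 50.9 and then 75.5 and 52.5 in BCPAP, and 99.2 and 160.5 and then 69.4 and 18.3 in CAL-62. The BCPAP groups overlapped, and the CAL-62 values were spread within both groups (SE 0.77).

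Of 26 NF-kB and cytokine genes, 21 had a negative difference and the median was -0.53, with 2 under an unadjusted p of 0.05 in the lower direction and 4 with the block, shares near the 4.96% and 11.5% of all genes. These 2 were IRF1, an interferon-regulated transcription factor (-1.41, SE 0.33), and NFKBIE, an inhibitor of NF-kB (-0.9986, SE 0.32), at -1.21 and -0.85 without CAL-62 DMSO replicate 2. ICAM1, an adhesion receptor, had 9.87 and 9.20 and then 9.62 and 10.1 in BCPAP, and 30.7 and 54.4 and then 20.95 and 24.9 in CAL-62 (difference -0.85, SE 0.40, limma adjusted p = 0.8343, and -0.45 without that library). The list went opposite ways in the replicate numbers, with medians of 0.18 within number 1 and -1.15 within number 2, and its median was 0.14 without CAL-62 DMSO replicate 2.

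For p53 targets the median was -0.60 over 23 genes, 17 of them negative, and 4 had an unadjusted p under 0.05 in the lower direction (4.96% of all genes), 6 with the block (11.5%). The p53 median was -0.16 within number 1 and -0.55 within number 2, and -0.43 without CAL-62 DMSO replicate 2. PLK3, a stress-activated kinase, had 6.47 and 5.11 and then 6.33 and 5.94 in BCPAP. In CAL-62 it had 5.11 and 17.0 and then 1.72 and 2.52 (difference -1.84, SE 0.65, limma adjusted p = 0.7959). The DMSO library with 17.0 was replicate 2, and the other was near the BCPAP level; without replicate 2 the difference was -1.06.

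MAPK output genes, transcripts that follow ERK activity, had a median of -0.72 over 21 genes, with 18 negative. In the lower direction 2 had an unadjusted p under 0.05 (4.96% of all genes) and 3 with the block (11.5%). Number 1 gave a median of -0.22 and number 2 of -1.09, and it was -0.43 without CAL-62 DMSO replicate 2. DUSP5, a phosphatase that dampens ERK, had 30.2 and 20.4 and then 40.6 and 29.5 in BCPAP, and 27.7 and 85.3 and then 28.5 and 10.2 in CAL-62 (difference -1.92, SE 0.82, limma adjusted p = 0.8343). DUSP5 was level in number 1 of CAL-62 and lower after THZ1 in number 2, and its difference without CAL-62 DMSO replicate 2 was -1.13.

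Immediate early genes, which cells induce within minutes of a stimulus, gave no single direction. The median over 27 genes was -0.25, but the libraries of number 1 gave 0.65 and those of number 2 gave -1.41, and it was 0.25 without CAL-62 DMSO replicate 2. KLF4, a transcription factor of this class, had 7.70 and 6.28 and then 9.48 and 8.31 in BCPAP, and 3.63 and 19.1 and then 1.90 and 1.59 in CAL-62. Its difference was -2.13, and -1.07 without that library. MYC, whose transcript is a common target of interest for CDK7 inhibitors, had 21.7 and 19.3 and then 24.0 and 22.6 in BCPAP, and 48.1 and 161.4 and then 83.6 and 25.5 in CAL-62. The MYC difference was 0.65 within number 1 and -2.84 within number 2 (-1.09 over all, SE 0.89, limma adjusted p = 0.8436), and -0.23 without CAL-62 DMSO replicate 2.

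Stress genes showed the same dependence on that DMSO library. CHAC1, a glutathione-degrading enzyme and target of the stress factor ATF4, had 3.66 and 1.74 and then 2.73 and 1.23 in BCPAP, and 9.54 and 100.0 and then 0.975 and 1.23 in CAL-62. Its difference was -3.65 (SE 1.25), and -2.02 without CAL-62 DMSO replicate 2. The median over 28 ATF4 targets was -0.37, with 21 negative, 2 under an unadjusted p of 0.05 in the lower direction (4.96% of all genes) and 6 with the block (11.5%). Without that library the ATF4 median was 0.11.

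XBP1, which drives transcription when proteins misfold in the endoplasmic reticulum, had 32.9 and 24.8 and then 23.4 and 16.1 in BCPAP. In CAL-62 it had 34.3 and 83.8 and then 5.97 and 3.82, so both THZ1 libraries were below every other library. The difference was -2.70 (SE 0.59), and -2.07 without CAL-62 DMSO replicate 2. Its list was divided: of 27 genes of folding in the endoplasmic reticulum, 20 had a positive and 7 a negative difference. The median of the list was 0.27. It was -0.42 with ribosomal protein and -0.38 with mitochondrially encoded genes as reference, where all genes had -0.61 and -0.51. An unadjusted p under 0.05 was found for 2 in the lower direction (4.96% of all genes) and 0 in the higher one (0.488%), and with the block for 4 (11.5%) and 5 (9.29%). Beside XBP1 the lower ones were led by DNAJB9, a co-chaperone (-1.35, and -1.01 without CAL-62 DMSO replicate 2).

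The higher side held the transcripts of large, abundant complexes. Of 81 cytosolic ribosomal protein genes, 80 had a positive difference, with a median of 0.63. Their median change was 0.96 in CAL-62 and 0.32 in BCPAP. An unadjusted p under 0.05 in the higher direction was found for 2 (0.488% of all genes), for 54 with the block (9.29%), and responses did not overlap in 34 (8.49%).

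Of 75 nuclear-encoded respiratory chain genes, 74 were positive, with a median of 0.58. In the higher direction 3 had an unadjusted p under 0.05 (0.488% of all genes), 51 with the block (9.29%), and 31 were without overlap (8.49%). The 13 mitochondrially encoded genes were all positive, with a median of 0.70, 0 under an unadjusted p of 0.05 and 5 with the block. The sign of these medians depends on the kind of scaling. Median-of-ratios and upper-quartile scaling gave 0.70 and 0.54 for ribosomal protein genes and 0.65 and 0.49 for the respiratory chain. For mitochondrially encoded genes they gave 0.77 and 0.62, against 0.002 and 0.04 under the references that follow. A list that serves as its own reference is set near 0 by that choice, so its value there cannot show its direction. With ribosomal protein or mitochondrially encoded genes as reference, the median over all genes was -0.61 and -0.51, that of ribosomal protein genes was -0.07 and -0.03, and that of the respiratory chain was -0.11 and -0.08. Relative to all genes under the same references, ribosomal protein genes lay 0.54 and 0.48 higher.

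These medians also moved with the replicate number. Ribosomal protein genes had 0.92 within number 1 and 0.35 within number 2, and the respiratory chain had 0.81 and 0.34. In BCPAP the ribosomal protein change was 0.08 in number 1 and 0.57 in number 2, while in CAL-62 it was 1.00 and 0.91. The 2 BCPAP pairs therefore differed more from each other than those of CAL-62 did. The median difference of ribosomal protein genes was 1.02 when BCPAP THZ1 replicate 2 was left out and 0.30 when replicate 1 was.

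RPL38, a protein of the large ribosomal subunit, had 327.2 and 273.1 and then 303 and 368.7 in BCPAP, where the groups overlapped. In CAL-62 it had 147.2 and 128.6 and then 307.3 and 285.5, so both THZ1 libraries lay above both controls (difference 0.94, SE 0.31). COX17, the copper chaperone of cytochrome c oxidase, had 27.0 and 29.1 and then 25.9 and 33.9 in BCPAP, and 43.9 and 35.7 and then 85.8 and 77.3 in CAL-62 (difference 0.94, SE 0.30). ATP5E, a subunit of ATP synthase, had the smallest p of the respiratory chain list (difference 0.99, SE 0.38, limma adjusted p = 0.8343). In RPL38 and COX17 alike the BCPAP pairs fell on both sides of 0 and the CAL-62 pairs on one. Scaled to ribosomal protein genes, the differences of RPL38, COX17 and ATP5E were 0.24, 0.25 and 0.30.

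The named genes of the higher direction outside these complexes were led by RNU2-2, a gene for the spliceosomal U2 RNA, which lacks a poly(A) tail. It had 6.22 and 4.58 and then 3.61 and 3.27 in BCPAP, and 3.69 and 1.85 and then 10.5 and 7.36 in CAL-62. Every BCPAP library after THZ1 was below its controls and every CAL-62 library above (difference 1.94, SE 0.44). The values rest on 17 and 13 and then 9 and 8 reads in BCPAP, and 11 and 6 and then 20 and 19 in CAL-62. Counting error is therefore large for RNU2-2, and the SE covers it only in part. Scaled to ribosomal protein genes the difference was 1.35.

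OGDH, the first subunit of the 2-oxoglutarate dehydrogenase complex of the citric acid cycle, also went opposite ways on the deposited scaling. It had 15.7 and 15.2 and then 8.94 and 9.64 in BCPAP, and 24.6 and 19.7 and then 32.7 and 30.8 in CAL-62. The groups did not overlap within either line (difference 1.18, SE 0.29). The change in BCPAP was -0.68 and that in CAL-62 was 0.50. Scaled to ribosomal protein genes the difference was 0.49, and scaled to mitochondrially encoded genes it was 0.55.

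The other named genes of this direction had smaller differences or levels. HSPE1, the mitochondrial co-chaperonin, had 0.87, SFPQ, a splicing and paraspeckle protein, had 0.95, TPM2, a tropomyosin, had 0.78, and TRUB2, a pseudouridine synthase of mitochondria, had 0.73. SYCE2, a protein of the synaptonemal complex, had 1.25 and LOC645652 had 1.23, both at BCPAP values of at most 2.13. Scaled to ribosomal protein genes, HSPE1 had 0.21, SFPQ 0.26, TPM2 0.04, TRUB2 0.03, SYCE2 0.53 and LOC645652 0.44. TPM2 differed between the lines far more in level than in response, at 7.64 and 7.65 under DMSO in BCPAP and 386.5 and 350.1 in CAL-62.

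Other lists of core machinery had positive medians: 0.46 over 12 RNA polymerase II subunits (11 positive), 0.42 over 35 proteasome subunits (32 positive), 0.40 over 25 heat shock proteins and chaperones (22 positive), 0.37 over 49 splicing factors (44 positive), 0.33 over 28 glycolysis and hypoxia genes (21 positive) and 0.26 over 74 mitochondrial ribosomal proteins (64 positive). In the higher direction these lists held 0, 0, 1, 1, 0 and 0 members under an unadjusted p of 0.05 (0.488% of all genes), and 3, 10, 10, 15, 11 and 11 with the block (9.29%). With ribosomal protein or mitochondrially encoded genes as reference each of these 6 medians turned negative. The median over all genes was then -0.61 and -0.51, and each of the 6 stayed above it. With ribosomal protein genes as reference they lay 0.38, 0.33, 0.31, 0.28, 0.36 and 0.20 higher than all genes. Their leading members by p were POLR2F (0.65), PSMB1 (0.63), GPI (0.68) and MRPL51 (0.73), and HSPE1 again; those of POLR2F, PSMB1 and GPI were negative with ribosomal protein genes as reference, and that of PSMB1 also with mitochondrially encoded genes. SRSF4, a splicing factor of the SR family, stood against its list: it had 49.9 and 51.6 and then 59.4 and 55.4 in BCPAP, and 41.3 and 29.4 and then 23.8 and 14.5 in CAL-62 (difference -1.04, SE 0.38).

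**Figure D4:**
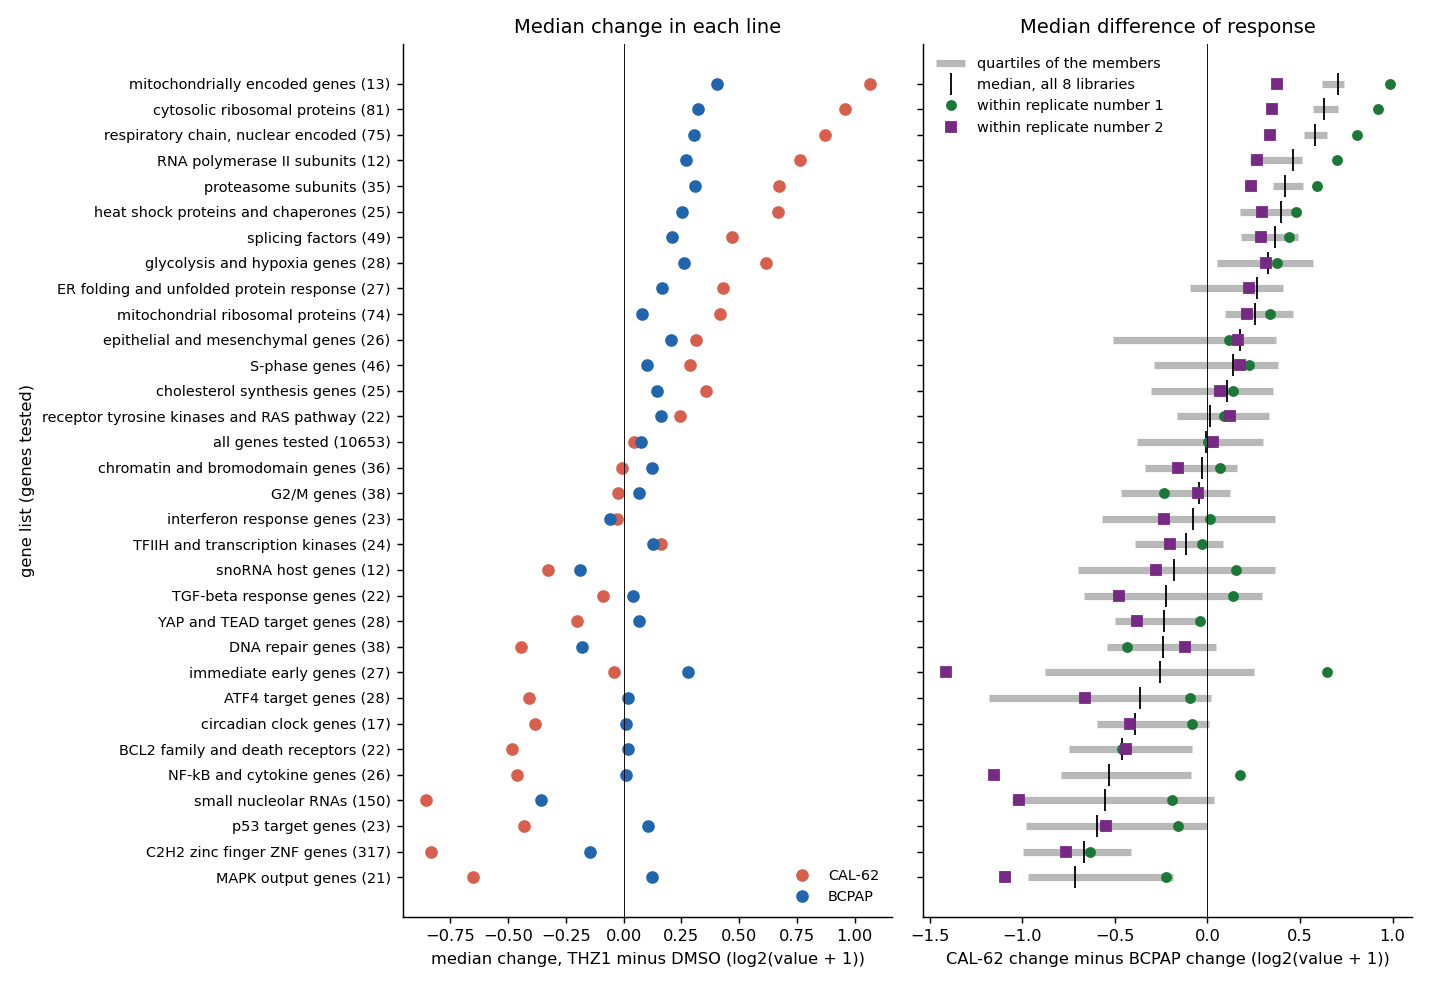
Median over the tested members of each gene list with at least 12 of them (y axis, number in brackets): the change in each line (left) and the difference of response (right), both in log2(value + 1); grey bars are the quartiles of the members' differences, green and purple symbols the medians within replicate numbers 1 and 2. Mitochondrially encoded, ribosomal protein and respiratory chain genes stand at the top, ZNF and MAPK output genes at the bottom, and immediate early genes have opposite signs in the 2 numbers.

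Of the targets of THZ1 and their partners, CDK7, CCNH and MNAT1 had differences within the quartiles of all genes (-0.38 and 0.30), and CDK12 and CDK13 lay below the lower one. CDK7 had 20.8 and 18.1 and then 22.1 and 18.9 in BCPAP, and 11 and 11.5 and then 10.4 and 9.62 in CAL-62 (difference -0.22, SE 0.29, limma adjusted p = 0.8805). Its partners in the CDK-activating kinase, cyclin H (CCNH) and MNAT1, had differences of 0.09 (SE 0.43) and 0.06 (SE 0.42), whose signs turned under both reference scalings (that of MNAT1 also with upper-quartile scaling). CDK12 had -0.67 (SE 0.41) and CDK13 -0.60 (SE 0.50). CDK12 was negative in both replicate numbers (-0.87 and -0.46), with a limma adjusted p of 0.8343 without and 0.2286 with the block. None of the 5 passed after adjustment in either fit; with the block CDK12 alone had an unadjusted p under 0.05.

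Over 24 genes of TFIIH and the transcription kinases the median was -0.12, and 10 were positive. An unadjusted p under 0.05 was found for 1 in the higher direction (0.488% of all genes) and 0 in the lower one (4.96%). With the block there were 1 (9.29%) and 3 (11.5%). GTF2H3, a subunit of the TFIIH core, was the member under an unadjusted p of 0.05, at 29.04 and 27.6 and then 25.5 and 25.4 in BCPAP, and 20.5 and 19.8 and then 29.02 and 29.5 in CAL-62 (difference 0.67, SE 0.25, limma adjusted p = 0.8343). The replicates of GTF2H3 lay close together in all 4 groups. With ribosomal protein genes as reference its difference was -0.01.

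PAX8, a transcription factor that maintains thyroid identity, had 57.0 and 82.5 and then 30.8 and 42.5 in BCPAP. In CAL-62 it had 91.1 and 117.4 and then 5.20 and 29.8, so both lines stood lower after THZ1 and the 2 CAL-62 libraries differed widely. Its difference was -2.02 (SE 0.89, limma adjusted p = 0.8343), and -0.86 without CAL-62 THZ1 replicate 1. HHEX, the other thyroid lineage gene in both tables, had a difference of -0.14 (SE 0.59).

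Cell cycle and repair genes were mixed. EXO1, an exonuclease of mismatch repair and recombination, had 17.2 and 12.04 and then 18.6 and 9.59 in BCPAP, and 12.6 and 12.3 and then 4.21 and 2.95 in CAL-62 (difference -1.47, SE 0.48). Of 38 DNA repair genes, 27 had a negative difference (median -0.24), 2 under an unadjusted p of 0.05 in the lower direction and 7 with the block; over all genes the shares were 4.96% and 11.5%. The 46 S-phase genes had a median of 0.14 and the 38 G2/M genes of -0.05, although POLD3, a subunit of DNA polymerase delta, had -1.24 (SE 0.46) and CCNF, cyclin F, had -1.23 (SE 0.40).

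The remaining lists had 0 to 2 members at an unadjusted p under 0.05 (5.44% of all genes). CLDN1, a tight junction protein, led the 26 epithelial and mesenchymal genes (median 0.17), at -1.15 (SE 0.36). PMEPA1, a feedback inhibitor of TGF-beta signalling, had -1.48 (SE 0.67), TRIM21, an interferon-induced ubiquitin ligase, -0.68, TEAD4, a DNA-binding partner of YAP, -0.70, and ARNTL, a core clock factor, -0.62. EED, a subunit of the Polycomb repressive complex, had -0.68, RASA1, a RAS GTPase-activating protein, -0.49, EBP of cholesterol synthesis 0.47 and the histone HIST1H2BK 0.56. The marker genes of other cell types in both tables, CD68 and COL1A1, had 0.48 and 0.19, and their signs turned under both reference scalings, as did those of EBP and HIST1H2BK. Medians were 0.11 over 25 cholesterol genes, 0.02 over 22 receptor tyrosine kinase and RAS genes, -0.03 over 36 chromatin genes, -0.08 over 23 interferon genes, -0.23 over 22 TGF-beta genes, -0.24 over 28 YAP and TEAD targets and -0.39 over 17 clock genes.

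The median difference also varied with properties of the transcripts. Genes were put into 5 length classes of about equal size. In the shortest class (up to 1613 bases) the median difference was 0.29, and it was 0.07, -0.06, -0.10 and -0.14 in the following classes, the last from 5132 bases. Length is the one recovered from the values. The part of list members such as ribosomal protein genes in this order was not tested. Between replicate numbers the order of the classes was the same.

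By exon number, genes with few exons leaned lower in CAL-62. Exon numbers are the most of any transcript in GENCODE v29, matched by symbol for 87.47% of genes, and the classes were chosen after values were seen. Of 138 single-exon protein-coding genes, 13.77% had an unadjusted p under 0.05 in the lower direction (4.96% of all genes), and of 259 with 2 exons, 17.37%. The shares were 8.537% with 3 to 5 exons, 4.616% with 6 to 10 and 2.028% with more than 10. The median difference was -0.24 for single-exon genes, -0.47 for 2 exons and 0.02 for over 10. The single-exon class holds KLHL9. Without ZNF genes 137 of its 138 genes remained, with a median of -0.23, so this value cannot separate exon number from that family. The part of ZNF genes in the classes of 2 and of 3 to 5 exons was not tested.

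**Figure D5:**
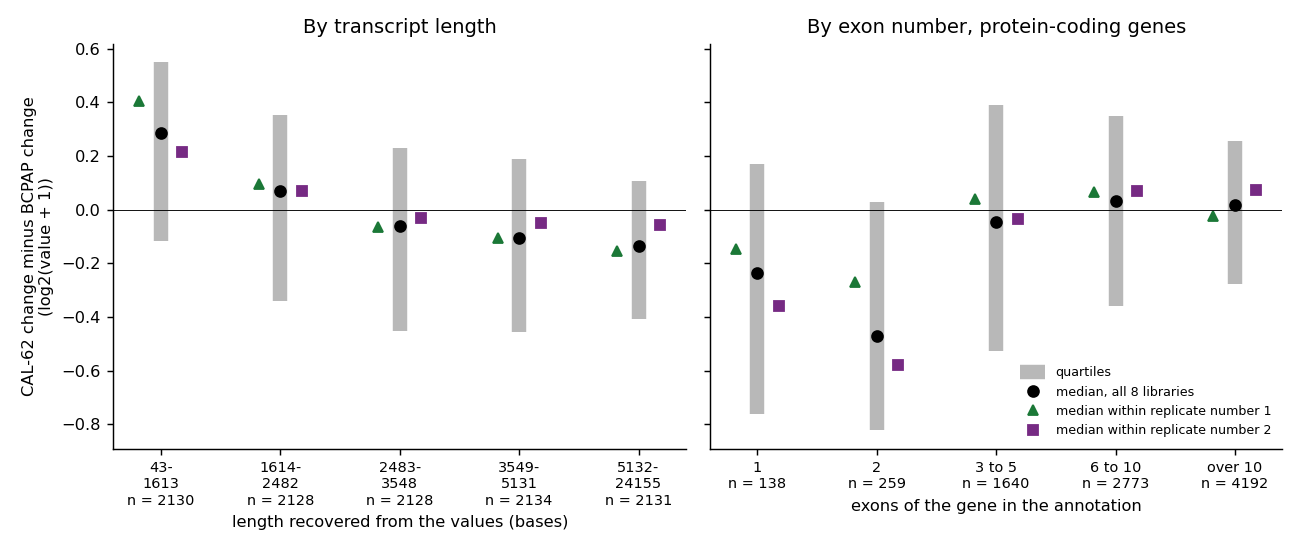
Difference of response (y axis, log2(value + 1)) by 5 classes of transcript length (left, bases) and by exon number of protein-coding genes (right); black points are medians over genes, grey bars quartiles, and triangles and squares the medians within replicate numbers 1 and 2. The median goes from 0.29 in the shortest to -0.14 in the longest class, and genes with 1 or 2 exons lie lowest.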

How the data were processed

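The authors' deposited files hold 1 RPKM-type value per gene and library, with no header, and the unit was inferred from the values. Bowtie2, DESeq2 and hg19 are named, without roles, per the submitters' processing notes; no source used here gives the annotation or the strand setting. Genes under a DMSO mean of about 1 (lowest listed 1.0008 and 1.0001) are outside the tables. Whole reads were recovered within 0.02 reads for 12711 of 12715 genes.

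The planned count test gave way to limma 3.58.1 (R 4.3.3) with trend, on log2(value + 1), a pseudocount of 1, over 8 libraries in 4 groups, as the values are not counts; tests are two-sided, called at an adjusted p under 0.05. Python 3.11.15, pandas 2.3.3 and matplotlib 3.10.9 made tables and figures. The fits were also run on simulated reads, drawn without a shared effect of the replicate number. The simulation therefore does not check the fits under the effect of that number seen here. A change on this scale understates that of low genes.

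Members, the 36 gene lists and the tests were chosen with earlier results of these data known. Named genes are, per direction, the 12 with the smallest p under 0.05 among those with a mean of at least 5 and responses that do not overlap (0 passed adjustment), then the member of smallest p of each list, and CDK7, CDK12, CDK13, CCNH, MNAT1, MYC and PAX8. Further genes were picked after their values were seen: the other members of lists under an unadjusted p of 0.05 and DDIT4, EGR1, GAS5, HHEX and ZNF185, beside the small nucleolar RNAs shown.

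Deviations from group means of same-numbered libraries correlated in all 6 pairs of groups (0.433 to 0.7787), so the blocked fits treat them as paired. With 2 libraries per group this cannot establish pairing, and the labels do not say what a number marks. Alternatives were other pseudocounts, filters, scalings, blocks, weights, voom and leaving out each library. The planned look at promoters is void: 64.96% of the genes with the lower response had a sequence. Bounds and read counts cover counting error only. Some items that these rules would name are not reported here.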

Additional observations from a re-analysis of the deposited data

Results flagged for a closer look

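For 8 named genes every library pair went one way in CAL-62 and the other way in BCPAP, on the deposited scaling. The test of the difference itself was run for each with limma and passed for none after adjustment (adjusted p from 0.7566 to 0.8343). Such opposite signs were seen in 0.404% and 1.41% of all genes, by direction. Up in CAL-62 and down in BCPAP were RNU2-2 (difference 1.94), OGDH (1.18), SYCE2 (1.25), TRUB2 (0.73) and GTF2H3 (0.67). Scaled to ribosomal protein genes, these differences were 1.35, 0.49, 0.53, 0.03 and -0.01. Down in CAL-62 and up in BCPAP were KLF4 (-2.13), the splicing factor SRSF4 (-1.04) and the Polycomb subunit EED (-0.68), at -2.62, -1.71 and -1.32 under that scaling. Within replicate numbers 1 and 2 the difference was 1.14 and 1.23 for OGDH, and -0.94 and -3.32 for KLF4.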

How the results depend on the processing

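limma called 0 genes under every alternative except mitochondrially encoded genes as reference, which called 1, also the 1 list member called; leaving out each library gave 0 to 0, so the share of higher among called genes has no value. Genes at an unadjusted p under 0.05, 528 lower and 52 higher, numbered 1222 and 990 with the replicate block within each line, 1079 and 469 with the shared block, and 1300 and 878 with voom and the block, which was added after seeing the data; the block changed no call. They were 1221 and 1 with ribosomal protein reference, 92 and 2 with mitochondrial reference, 289 lower with a mean of at least 5, and 119, 28 and 34 higher with median-of-ratios scaling, upper-quartile scaling and voom. Leaving out single libraries gave 258 to 1017 lower and 19 to 567 higher. Lower counts moved by over 1.5 times without BCPAP DMSO replicate 1 (332) or 2 (260), BCPAP THZ1 replicate 1 (258), CAL-62 DMSO replicate 2 (290) and CAL-62 THZ1 replicate 1 (1017); higher counts without BCPAP DMSO replicate 1 (24) or 2 (30), BCPAP THZ1 replicate 1 (19) or 2 (567), CAL-62 DMSO replicate 2 (22) and CAL-62 THZ1 replicate 2 (109). The cause was not tested. The share of CAL-62 lower calls with a negative BCPAP change was 86.55% and 87.26% with the blocks and 86.18% with voom and the block, and 79.38% to 97.8% without single libraries; for higher calls it was 72.82% to 100%. Of 1403 values of the 61 named entries under alternatives, 1377 kept their sign, 26 changed it and 1 passed the threshold. Depth limits SNORD44, SNORD27, SNORD12 and SNORD50B, at 0 to 2 reads after THZ1 in CAL-62. It also limits RNU2-2, at 6 to 20 reads per library.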

Other observations

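MEPCE belongs to the complex around 7SK RNA. Further genes tied to that complex were looked at after its value was seen, so they are given as description, and none passed after adjustment. HEXIM1, the inhibitor that 7SK delivers to P-TEFb, had 12.5 and 17.8 under DMSO, and 21.6 and 28.7 with THZ1 in BCPAP, and 23.4 and 23.7 and then 39.2 and 30.9 in CAL-62 (difference -0.16, SE 0.36). HEXIM1 thus stood higher after THZ1 in all libraries of both lines. LARP7, which binds the end of 7SK, had a difference of 0.08 (SE 0.48). CDK9, the kinase of P-TEFb, had 23.4 and 27.5 and then 21.2 and 27.7 in BCPAP, and 30.7 and 33.0 and then 15.7 and 22.7 in CAL-62. Its difference was -0.66 (SE 0.35), with a limma adjusted p of 0.8343 without and 0.2276 with the block. CCNT1, its cyclin, had a difference of -0.37 (SE 0.80).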
